A study of Rattus norvegicus with 218 samples.

Results

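Remote ischemic preconditioning (RIPC) was compared with sham surgery in rat neurons of the vagal dorsal motor nucleus (DMV). Samples were chosen by their condition label and by yield: a sample entered if at least 42 assays of the panel, which covers 165 genes, gave a threshold cycle (Ct). This kept 105 RIPC and sham samples of the 213 samples in all, from 121 RIPC and sham samples before the limit. The 43 RIPC samples came from 3 animals and held 94 cells, and the 62 sham samples came from 4 animals and held 209 cells. The animal is the replicate except where a test is said to run over samples, and the labels give 1 sham animal more than the study's methods do; the labels were followed.

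All RIPC and sham animals were male Sprague Dawley rats anesthetized with ketamine and xylazine, and both surgeries exposed the femoral vessels. In RIPC the vessels were tied off for 15 min and released, in sham the thread was passed and not tied, and brainstems were collected 2.5 h after reperfusion or the matching time. Cells stained for the neuronal protein NeuN were laser-captured from left and right DMV, singly or in small pools, and measured by multiplex microfluidic RT-qPCR. Each pool mixed several captured cells of 1 animal and 1 side, so that fewer cells with a transcript and less transcript per cell cannot be told apart in pools.

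The DMV holds preganglionic motor neurons of the vagus nerve, which release acetylcholine in the walls of the heart and gut and receive GABA, catecholamine, histamine, serotonin and peptide inputs. In RIPC a short interruption of blood flow in the limbs protects the heart, and this protection is known to need vagal motor neurons. The panel therefore covers transmitter enzymes, receptors of these inputs, ion channels and peptides, and an assay reports either no Ct, where the transcript was below detection or the assay failed, which cannot be told apart, or a Ct that is lower where more transcript was present.

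The kept RIPC samples were 18 pools and 25 single neurons, and the kept sham samples were 46 pools and 16 single neurons. RIPC replicates 1, 2 and 3 gave 8, 8 and 2 pools and 4, 10 and 11 single neurons. Sham replicates 1 to 4 gave 7, 11, 11 and 17 pools and 7, 3, 1 and 5 single neurons, so sham replicate 3 could not enter comparisons of single neurons, which needed at least 2 samples per animal. The composition of the groups thus differed, with pools making up most sham samples and single neurons most RIPC samples, and the kinds of sample were kept apart throughout. In RIPC, the title of 1 single neuron resembles those given to a different animal, and the neuron was kept under its animal label.

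Yield was uneven among the RIPC animals. Pools of RIPC replicates 1, 2 and 3 had a mean of 65.4, 99.4 and 93.5 assays with a Ct, and pools of sham replicates 1 to 4 had 96.0, 85.2, 100.2 and 97.2. RIPC replicate 1 thus lay below all other animals. Its 4 left pools had a mean of 50.5 assays (43 to 62) against 80.3 in its 4 right pools (47 to 135). The right mean includes the pool with 135 assays, and the median over all pools of this animal was 56.5. The group means were 86.1 ± 18.2 (SD, n = 3) and 94.6 ± 6.54 (n = 4), with p = 0.486 by a two-sided exact permutation test whose smallest possible p was 0.0286. Single neurons had means of 80.5, 68.6 and 73.5 assays in RIPC and 65.7, 68.7 and 66.0 in the 3 sham animals, and here RIPC was higher by 7.39 assays (exact permutation p = 0.2, smallest possible 0.1). In single neurons the same RIPC replicate 1 was the highest animal, with 112 assays in its left and 49 in its right neurons.

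**Figure D1:**
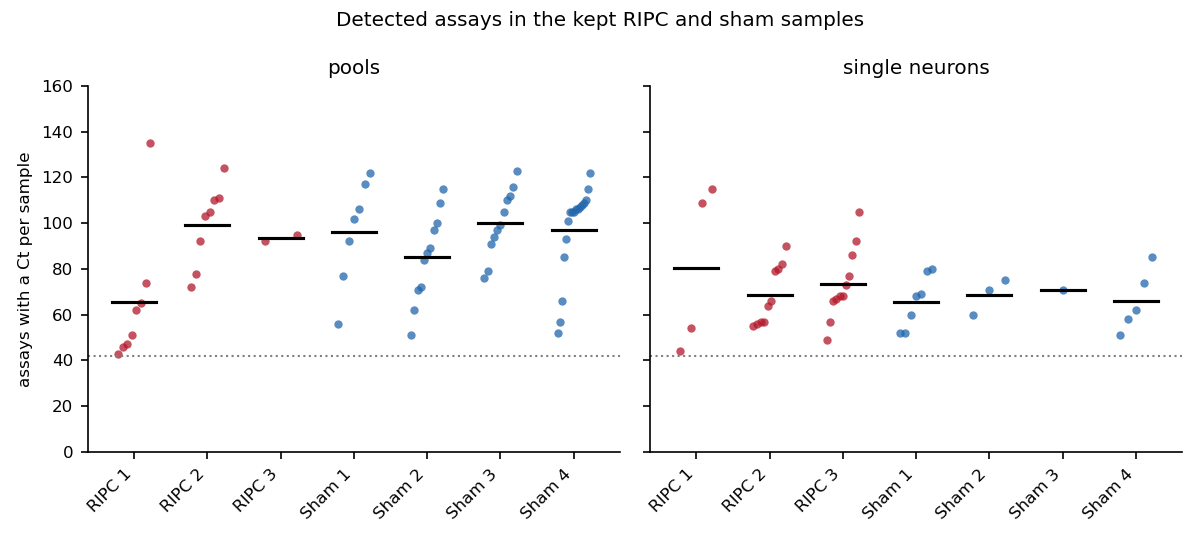
Assays with a Ct per kept sample (vertical axis) for each RIPC (red) and sham (blue) animal, in pools (left) and single neurons (right); each point is 1 sample, points of an animal are drawn in order of value, black lines are animal means, and the dotted line is the limit of 42 assays. The mean of RIPC replicate 1 in pools, 65.4, lies below the means of the other animals, 85.2 to 100.2.

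The limit of 42 assays fell among the samples of this animal. The samples just inside had 43, 44, 46 and 47 assays, all from RIPC replicate 1, and then 49 in RIPC replicate 3. At 51 assays there were a pool of RIPC replicate 1, a pool of sham replicate 2 and a single neuron of sham replicate 4. Those just outside had 41, 41, 40, 39, 38 and 38, of which 4 were sham and 2 RIPC. Neuronal markers were present in either group. Scn2a, a neuronal sodium channel, had a Ct in 18 of 18 RIPC pools, 46 of 46 sham pools, 24 of 25 RIPC single neurons and 15 of 16 sham single neurons. Map2 had a Ct in 12 of 18 RIPC and 40 of 46 sham pools and Eno2 in 15 of 18 and 41 of 46. No sample lacked all of Camk2a, Eno2 and Scn2a, and 6 lacked Camk2a. Gfap, the intermediate filament of astrocytes, had a Ct in 22 of 25 RIPC and 15 of 16 sham single neurons and in 11 of 18 RIPC and 36 of 46 sham pools. Gfap was thus detected in samples of both groups, and whether it came from astrocytes was not tested. Its level in single neurons was -0.267, -0.794 and 0.605 cycles in RIPC and -0.433, -1.29 and -1.64 in sham, a difference of +0.971 (interval -0.278 to 2.22) that kept its sign under every alternative, and in pools it was +0.0840. Its part in the differences below was not tested.

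A share and a level were compared for each gene, with the animal as the replicate. The share is the percentage of an animal's samples with a Ct. The level is the Ct relative to the sample's median over the 35 genes with the most detections, counted in cycles and reversed in sign, a higher level being more transcript. RIPC and sham were set against each other with limma on these animal values, and adjusted p-values are by Benjamini-Hochberg over all genes tested. Naive rats of the series, which had no surgery, also entered these fits, only to share the estimate of spread.

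No gene differed between RIPC and sham at an adjusted p under 0.05. In pools 0 of 128 genes (0%) were called by share and 0 of 106 (0%) by level, with smallest adjusted p of 0.994 and 0.213 by limma. In single neurons 0 of 111 (0%) were called by share and 0 of 83 (0%) by level, with smallest adjusted p of 0.879 and 0.929. Unadjusted p under 0.05 was reached by 1, 3, 5 and 4 genes in these fits. Fisher's exact test over samples, which treats samples that share an animal as independent and so has p-values that are too small, called 0 genes, with 10 at an unadjusted p under 0.05 in pools and 5 in single neurons. The precision was coarse: the 95% interval of a gene's difference had a median half-width of 32.3 percentage points in pools and 31.4 in single neurons, and of 1.57 and 1.47 cycles for levels.

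The direction of the shares was opposite in the 2 kinds of sample. In pools 93 genes had a lower and 35 a higher share in RIPC, with a median difference of -6.08 percentage points. In single neurons 70 genes had a higher and 41 a lower share, with a median of +5.83. The pool values leaned on RIPC replicate 1, which had the lowest share of all 7 animals in 56 of 128 genes and a mean share of 37.1% against 53.1% to 64.6% in the others. Without it, 79 genes were higher and 49 lower in pools, with a median of +4.23. In single neurons RIPC replicate 1 had the highest share in 26 of 111 genes, and without it the median was +3.52. Once each animal's mean share over all genes was subtracted, the medians were -1.05 in pools and +1.42 in single neurons. This subtraction gives every animal the same mean share, so small medians largely follow from it and test nothing.

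Genes whose RIPC animals all lay above or all below every sham animal were few, counting by level only animals with a level, which in pools were RIPC replicates 1 and 2 or 2 and 3 for every such gene but Drd2. By share in pools these were Hrh1 above (0.781% of genes tested) and Esr1, Grp and Nos3 below (2.34%). By share in single neurons they were Gabra2, Gabrb2, Hcrtr1, Htr7, Npr3 and Srebf1 above (5.41%) and Htr1b and Mapk14 below (1.8%). By level in pools Npr3 lay above (0.943%) and Chrna4, Drd2, Htr6, Nppa, Nr3c1 and Trpv1 below (5.66%). By level in single neurons Gabrq and Rgs3 lay above (2.41%) and Cartpt, Cebpa, Chrm1, Chrm5, Drd1, Drd2, Htr2a and Map2 below (9.64%). Within 1 measure, Drd2 by level was the only gene apart in the same direction in pools and in single neurons.

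**Figure D2:**
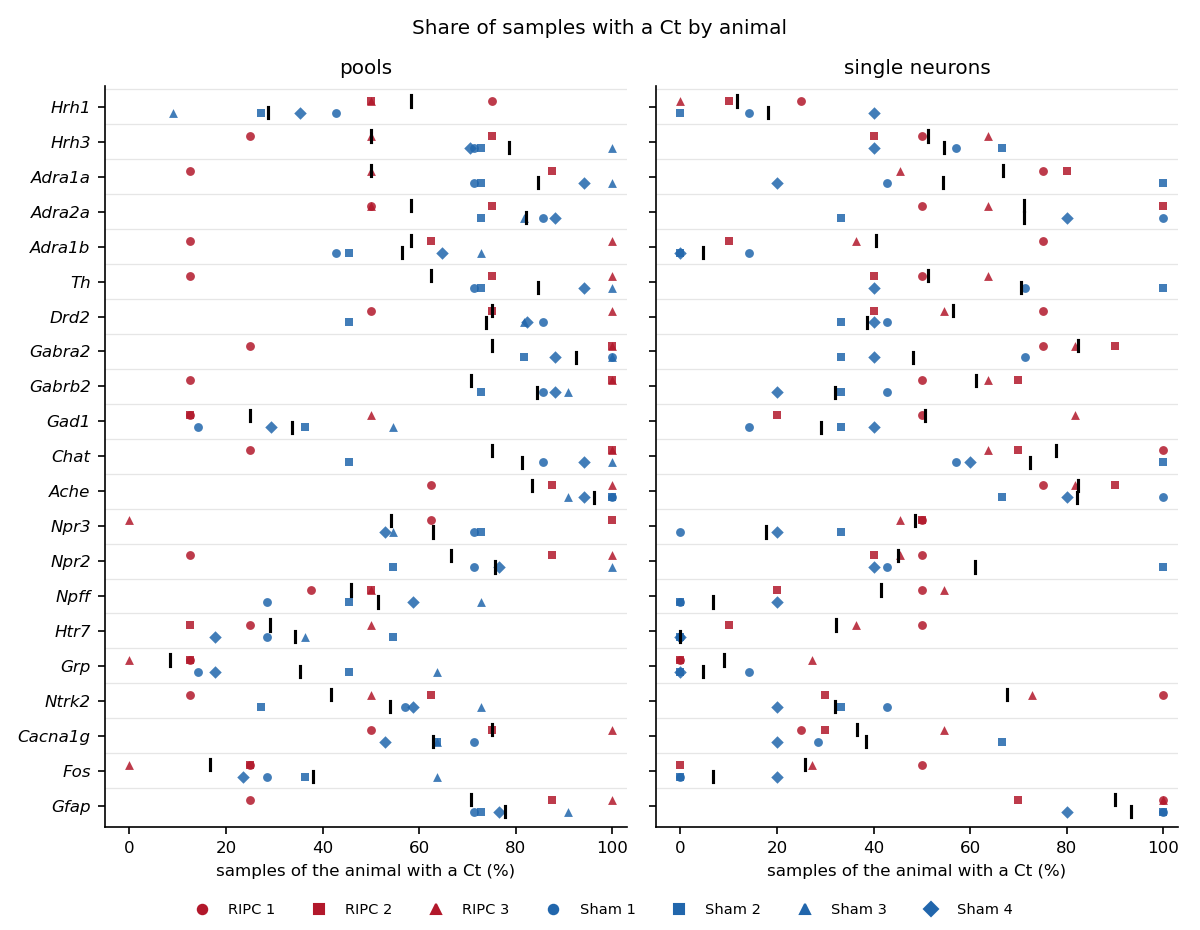
Share of an animal's samples with a Ct (horizontal axis, %) for 21 genes in pools (left) and single neurons (right), with RIPC animals in red and sham animals in blue, a symbol for each replicate number and black bars for group means. In pools the red circle of RIPC replicate 1 is often the lowest value, as for Gabra2 at 25%, and in single neurons the 3 RIPC values of Gabra2 (75 to 90%) sit to the right of the 3 sham values (33.3 to 71.4%).

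Acetylcholine is made by choline acetyltransferase (Chat), the defining enzyme of vagal motor neurons, and is broken down by acetylcholinesterase (Ache). Chat had a Ct in 100, 70 and 63.6% of single neurons in the RIPC animals and in 57.1, 100 and 60% in the sham animals, so the groups overlap. The difference was +5.50 percentage points (95% interval -25.9 to 36.9, adjusted p = 0.931 by limma). In pools Chat was detected in 25, 100 and 100% (RIPC) and 85.7, 45.5, 100 and 94.1% (sham), so the low values were 1 RIPC and 1 sham animal. Ache differed by 0.0505 percentage points in single neurons (interval -31.4 to 31.5) and by -12.9 in pools (interval -46.3 to 20.4), or -2.51 without RIPC replicate 1.

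GABA is made by the glutamate decarboxylases Gad1 and Gad2. Gad1 had a Ct in 50, 20 and 81.8% of RIPC single neurons and in 14.3, 33.3 and 40% of sham single neurons, and the groups overlap through RIPC replicate 2. The mean was higher by 21.4 percentage points in RIPC single neurons (interval -10 to 52.8) and differed by -8.65 in pools (interval -40.3 to 23.0). Gad2 differed by +11.1 in single neurons and -8.49 in pools, and without RIPC replicate 1 the pool differences of Gad1 and Gad2 were -2.40 and +1.92. On the right side alone the single-neuron differences of both genes had the other sign, -8.33 for Gad1 and -38.9 for Gad2.

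Single neurons were sorted into 4 classes by these enzymes. Chat together with Gad1 or Gad2 was seen in 3 of 4, 3 of 10 and 6 of 11 neurons of the RIPC animals and in 0 of 7, 2 of 3 and 2 of 5 neurons of the sham animals. Chat alone was seen in 1 of 4, 4 of 10 and 1 of 11 RIPC neurons and in 4 of 7, 1 of 3 and 1 of 5 sham neurons. Neurons with both transmitter enzymes were thus found in every RIPC animal, but 2 of the 3 sham animals, replicates 2 and 4, lay within the RIPC range. The mean shares of the class with both were 53.2 ± 22.5% (SD, n = 3) in RIPC and 35.6 ± 33.6% (n = 3) in sham, with an exact permutation p of 0.6, two-sided. Chat alone was at 24.7 against 36.8% (exact permutation p = 0.5, n = 3 and 3), Gad1 or Gad2 alone at 18.8 against 16.2% (exact p = 1), and neither at 3.33 against 11.4% (exact p = 0.4). The smallest p this design allows is 0.1. Leaving out sham replicate 1, the only animal with no neuron of the class with both enzymes, brought that difference to -0.152 percentage points and the difference in Chat alone from -12.1 to -1.97. Without RIPC replicate 3 the latter was -4.33.

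GABA acts on DMV neurons through pentameric GABA-A receptors, of which 6 subunits were on the panel. All 6 had a higher share in RIPC single neurons, with a median difference of +14.2 percentage points against +5.83 over all genes tested, and all 6 had a lower share in RIPC pools, with a median of -12.1 against -6.08. Without RIPC replicate 1, 5 of the 6 were higher in pools and 4 of 6 in single neurons, so the pool direction rested on that animal. None of the 6 was called in either kind of sample.

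Gabra2, the alpha-2 subunit, carried the largest of these differences. It had a Ct in 75, 90 and 81.8% of single neurons of the RIPC animals and in 71.4, 33.3 and 40% of those of the sham animals. Every RIPC animal was above every sham animal, though RIPC replicate 1 by only a little. The difference was +34.0 percentage points (interval 2.59 to 65.4, adjusted p = 0.879 by limma; exact permutation p = 0.1, the smallest possible). In pools the shares were 25, 100 and 100% in RIPC and 100, 81.8, 100 and 88.2% in sham, at or near the ceiling in all animals but RIPC replicate 1, and the difference of -17.5 became +7.49 without it. Among neurons with a Ct, the level of Gabra2 differed by -0.124 cycles in single neurons (interval -1.85 to 1.60) and by +0.727 in pools (interval -0.448 to 1.90).

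Gabrb2, a beta subunit, followed the same order in single neurons, with 50, 70 and 63.6% in RIPC and 42.9, 33.3 and 20% in sham, a difference of +29.1 (interval -2.28 to 60.6). Gabrq, the theta subunit, differed in level: it was at -0.919, -1.27 and -0.0337 cycles in RIPC single neurons and at -1.66 and -5.04 in the 2 sham animals with a level. The RIPC animals were all higher, and most of the distance came from sham replicate 4. The difference was +2.61 cycles (interval 0.297 to 4.92, adjusted p = 0.929 by limma; exact permutation p = 0.1, the smallest possible). In pools the level of Gabrq differed by -0.0317 cycles (interval -1.63 to 1.57).

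Drd2 was the gene whose groups did not overlap by level in either kind of sample. It encodes the D2 dopamine receptor, which is coupled to inhibitory G proteins. In pools its level was -4.44, -2.94 and -2.25 cycles in the RIPC animals and -1.46, -0.298, -1.93 and -2.08 in the sham animals. All RIPC animals were lower, with RIPC replicate 3 just under sham replicate 4. The difference was -1.77 cycles (interval -3.37 to -0.172, adjusted p = 0.975 by limma; exact permutation p = 0.0286, the smallest possible). In single neurons the level was -3.42, -1.57 and -1.23 cycles in RIPC and 0.733 and -0.723 in sham replicates 1 and 4, again without overlap. There the difference was -2.08 cycles (interval -4.10 to -0.0629, adjusted p = 0.929 by limma; exact permutation p = 0.2, smallest possible 0.1). The single-neuron values rest on 13 RIPC and 5 sham neurons of these animals with a Ct.

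The share of samples with Drd2 did not follow its level. It was 50, 75 and 100% in RIPC pools and 85.7, 45.5, 81.8 and 82.4% in sham pools, and 75, 40 and 54.5% in RIPC single neurons and 42.9, 33.3 and 40% in sham single neurons. The groups overlap in both, with differences of +1.17 in pools (interval -30.1 to 32.5) and +17.8 in single neurons (interval -13.6 to 49.2). Setting undetected values 1 cycle below the lowest level of the gene, which joins share and level in 1 value, gave -0.91 cycles in pools and turned the single-neuron difference to +0.946. In pools with at least 84 assays the difference was -0.622 cycles.

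**Figure D3:**
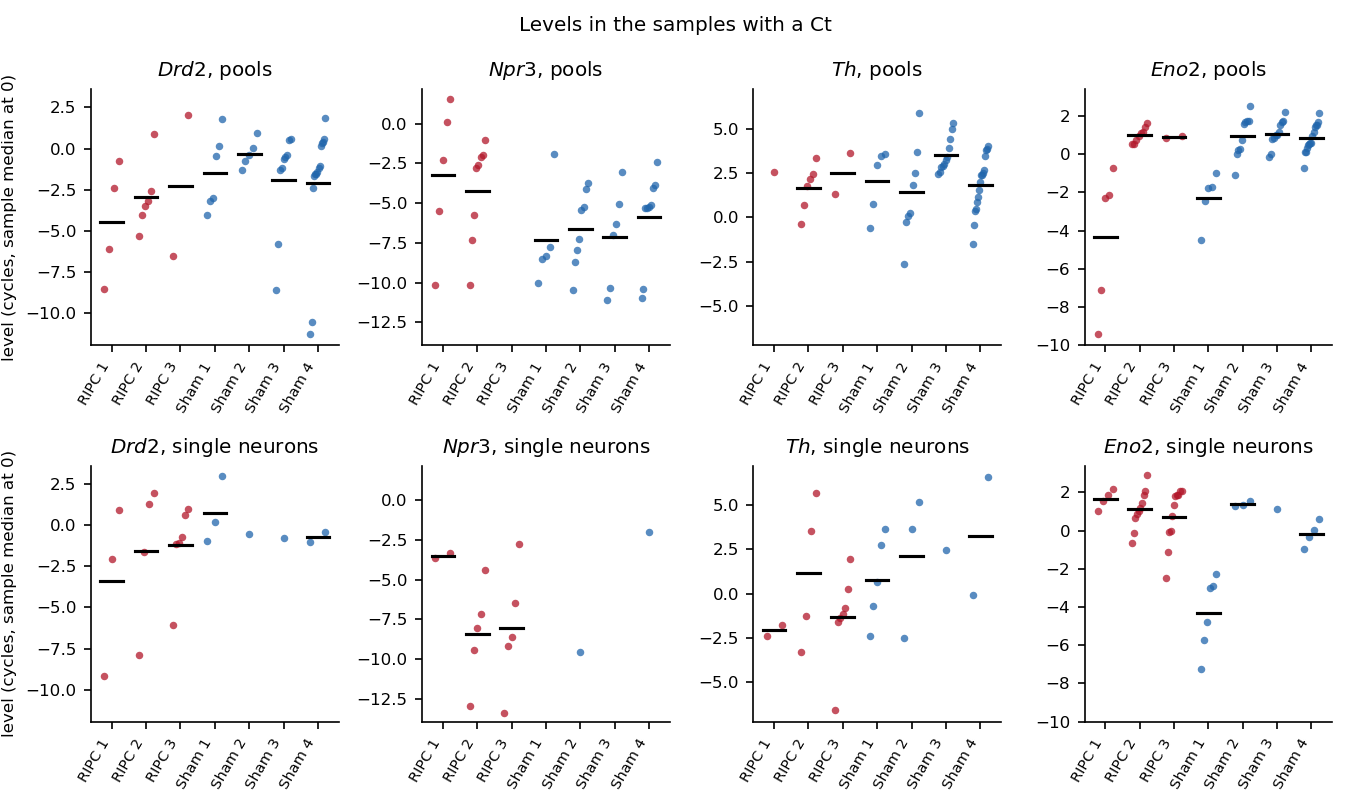
Levels (vertical axis, cycles, with the sample median of the 35 reference genes at 0) of Drd2, Npr3, Th and Eno2 in every sample with a Ct, in pools (top) and single neurons (bottom), for each RIPC (red) and sham (blue) animal; points of an animal are drawn in order of value and black lines are means of animals with at least 2 values. The RIPC means of Drd2 lie below the sham means in both rows, while single samples of the groups overlap widely.

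Drd1, the D1 receptor, had levels of -1.66, -1.06 and -1.72 cycles in RIPC single neurons and -0.349, -0.843 and -0.0352 in sham single neurons, with no overlap. The difference was -1.07 cycles (interval -2.03 to -0.106, adjusted p = 0.929 by limma; exact permutation p = 0.1, the smallest possible). In pools it was +0.0504 cycles (interval -1.24 to 1.34), where Drd1 had a Ct in 90.9% or more of the samples of every animal. With undetected single neurons set 1 cycle below the lowest value the difference was +0.257, since Drd1 was detected more often in RIPC neurons (100, 90 and 81.8%) than in sham neurons (85.7, 66.7 and 60%).

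Th encodes tyrosine hydroxylase, the first enzyme of catecholamine synthesis. Its level in single neurons was -2.07, 1.18 and -1.33 cycles in RIPC and 0.802, 2.11 and 3.26 in sham. RIPC replicate 2 lay within the sham range and the other RIPC animals lay below it. The difference was -2.80 cycles (interval -5.53 to -0.0589, adjusted p = 0.929 by limma; exact permutation p = 0.2, smallest possible 0.1), and its sign was the same under every alternative that gave a value (-3.76 to -1.03 cycles). In pools it was -0.132 cycles (interval -1.71 to 1.45), with only RIPC replicates 2 and 3 having enough pools with a Ct. The share of single neurons with Th was 50, 40 and 63.6% in RIPC and 71.4, 100 and 40% in sham, a difference of -19.3 (interval -50.7 to 12.2). Dbh, which converts dopamine to norepinephrine, had a Ct in 5 of 25 RIPC and 2 of 16 sham single neurons.

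Adrenergic receptors differed between kinds of sample. Adra1a, an alpha-1 receptor coupled to excitatory signalling, had a Ct in 12.5, 87.5 and 50% of RIPC pools and 71.4, 72.7, 100 and 94.1% of sham pools, where RIPC replicate 2 was within the sham range. The difference was -34.6 percentage points (interval -73.1 to 3.95, adjusted p = 0.994 by limma), and -15.8 without RIPC replicate 1. In single neurons the shares were 75, 80 and 45.5% in RIPC and 42.9, 100 and 20% in sham, which spread over the RIPC values, and the difference was +12.5 (interval -18.9 to 44.0). Adra2a, an inhibitory alpha-2 receptor, was at 50, 75 and 50% of RIPC pools and 72.7 to 88.2% of sham pools, a difference of -23.8 (interval -52.5 to 4.91), and differed by 0.101 in single neurons (interval -31.3 to 31.5).

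Adra1b, another alpha-1 receptor, was rare in sham single neurons. It had a Ct in 3 of 4, 1 of 10 and 4 of 11 neurons of the RIPC animals and in 1 of 7, 0 of 3 and 0 of 5 neurons of the sham animals. RIPC replicate 2, at 10%, fell below sham replicate 1, at 14.3%. The difference was +35.7 (interval 4.27 to 67.1, adjusted p = 0.879 by limma; exact permutation p = 0.2, smallest possible 0.1), against +1.90 in pools (interval -35.2 to 39.0). Like Htr7, Npff, Hcrtr1 and Fos below, Adra1b was in under 10% of sham single neurons and entered the single-neuron test only through its detection in RIPC.

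Histamine receptors respond to input from the hypothalamus. Hrh1, the excitatory H1 receptor, had a Ct in 75, 50 and 50% of RIPC pools and in 42.9, 27.3, 9.09 and 35.3% of sham pools, without overlap. The difference was +29.7 (interval 0.895 to 58.5, adjusted p = 0.994 by limma; exact permutation p = 0.0571, smallest possible 0.0286). Single neurons did not have this order: the shares were 25, 10 and 0% in RIPC and 14.3, 0 and 40% in sham, a difference of -6.43 (interval -37.9 to 25.0). Hrh1 came late in the run, with 45.5% of its Ct in RIPC pools and 53.8% in sham pools above cycle 20, where 4.73% of all kept values lay. Hrh3, an inhibitory histamine receptor, had shares of 25, 75 and 50% in RIPC pools and 70.6 to 100% in sham pools, a difference of -28.7 (interval -60.7 to 3.34) that was -16.2 without RIPC replicate 1, and differed by -3.39 in single neurons (interval -34.8 to 28.0). Of the 4 histamine receptors, 2 were higher and 2 lower in RIPC pools, and 1 was higher and 3 lower in RIPC single neurons.

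Of the 9 serotonin receptors tested, 7 had a lower share in RIPC pools and 6 a higher share in RIPC single neurons, with medians of -4.63 and +5.71. Htr7, a receptor that raises cyclic AMP, had a Ct in 2 of 4, 1 of 10 and 4 of 11 RIPC single neurons and in none of the 7, 3 and 5 neurons of the sham animals compared (0 of 16 sham single neurons in all, which allows a share of up to 18.8%, for counting error only). The difference was +32.1 (interval 0.695 to 63.5, adjusted p = 0.879 by limma; exact permutation p = 0.1, the smallest possible), while pools had a Ct in 25, 12.5 and 50% in RIPC and 17.6 to 54.5% in sham, a difference of -5.12. Htr1b, an inhibitory receptor, was at 50, 40 and 45.5% in RIPC and at 71.4, 66.7 and 60% in sham single neurons, a difference of -20.9 (interval -52.3 to 10.5).

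Natriuretic peptide signalling was covered by the peptides and by Npr1, Npr2 and the clearance receptor Npr3. In pools the level of Npr3 was -3.25 and -4.21 cycles in RIPC replicates 1 and 2 and -7.31, -6.62, -7.14 and -5.86 cycles in the sham animals, while neither pool of RIPC replicate 3 had a Ct. The RIPC animals with a level were above all sham animals. The difference was +3.00 cycles (interval 1.34 to 4.66), which had the smallest adjusted p among the 4 comparisons over animals, shares and levels in pools and single neurons, given at the start (0.213 by limma; exact permutation p = 0.0667, the smallest possible for 2 against 4 animals). Shares in pools did not follow, at 62.5, 100 and 0% in RIPC and 52.9 to 72.7% in sham.

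In single neurons Npr3 had a Ct in 2 of 4, 5 of 10 and 5 of 11 neurons of the RIPC animals and in 0 of 7, 1 of 3 and 1 of 5 neurons of the sham animals. The RIPC shares of 50, 50 and 45.5% were close together and above the sham shares of 0, 33.3 and 20%. The difference was +30.7 (interval -0.719 to 62.1, adjusted p = 0.879 by limma; exact permutation p = 0.1, the smallest possible). Most of these Ct were late, with 66.7% of those in RIPC single neurons above cycle 20, and the RIPC levels of -3.50, -8.41 and -8.07 cycles had no sham counterpart, because no sham animal had 2 single neurons with a Ct.

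Npr2, the receptor of C-type natriuretic peptide, differed in level by -1.38 cycles in single neurons (interval -2.89 to 0.123), with -2.40, -3.63 and -1.56 in RIPC and -1.22, -1.71 and -0.512 in sham, where RIPC replicate 3 lay within the sham range. In pools the difference was -0.147 (interval -1.44 to 1.15). Nppa, which encodes atrial natriuretic peptide, had levels of -5.09 and -5.68 in RIPC pools and -5.03, -2.74, -2.28 and -2.36 in sham pools, so sham replicate 1 sat beside the RIPC animals. The difference was -2.28 cycles (interval -4.22 to -0.345, adjusted p = 0.975 by limma; exact permutation p = 0.133, smallest possible 0.0667). Agtr1a, the angiotensin receptor, had overlapping levels in both kinds of sample, with differences of -0.917 in pools (interval -4.06 to 2.23) and -1.01 in single neurons (interval -3.99 to 1.96).

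Peptides made by DMV neurons were mostly detected in part of the samples. Npff, the precursor of neuropeptide FF, had a Ct in 50, 20 and 54.5% of RIPC single neurons and in 0, 0 and 20% of sham single neurons, where RIPC replicate 2 equalled sham replicate 4. The difference was +34.8 (interval 3.42 to 66.3, adjusted p = 0.879 by limma; exact permutation p = 0.2, smallest possible 0.1), against -5.56 in pools. Cartpt, the precursor of the CART peptide, had a level of -1.91, -1.63 and -1.11 in RIPC single neurons and 0.632 and -0.923 in sham, a difference of -1.41 cycles (interval -2.88 to 0.0650). In pools Cartpt had the other sign, with +1.18 cycles (interval -0.255 to 2.61) that came mainly from RIPC replicate 3 at 0.452 against -2.59 to -2.12 in sham. Fstl1, a secreted follistatin-like protein, differed by -14.2 in share in single neurons (interval -45.6 to 17.3) and by -13.3 in pools, which became +11.7 without RIPC replicate 1.

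Grp, the precursor of gastrin-releasing peptide, had a Ct in 12.5, 12.5 and 0% of RIPC pools and in 14.3, 45.5, 63.6 and 17.6% of sham pools, a difference of -26.9 (interval -56.9 to 3.03), and in 3 of 25 RIPC and 1 of 16 sham single neurons. Among receptors of gut and feeding peptides, Cckar, the cholecystokinin A receptor, differed by -9.70 in pools (interval -49.4 to 30.0; +9.05 without RIPC replicate 1) and +13.2 in single neurons (interval -18.2 to 44.6). Hcrtr1, an orexin receptor, had a Ct in 25, 40 and 18.2% of RIPC and 14.3, 0 and 0% of sham single neurons (difference +23.0, interval -8.46 to 54.4). Over the 8 tested members of this group, 6 were lower in RIPC pools (3 without RIPC replicate 1, with the median turning from -4.79 to +5.81), and 4 were higher and 4 lower in RIPC single neurons.

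Muscarinic and nicotinic receptors, which bind acetylcholine, had a median share that was higher in RIPC in both kinds of sample. No other list did with all animals, but without RIPC replicate 1 there were 9 such lists. Of 7 tested, 5 were higher in pools (median +4.12) and 4 in single neurons (median +5.71). By level, 3 of the 5 tested in single neurons were lower, as were 53 of 83 over all genes tested. Chrm1 was at -2.72, -2.39 and -2.14 in RIPC and -1.76, -2.04 and -1.59 in sham (difference -0.617, interval -1.58 to 0.345), and Chrm5 differed by -0.623 (interval -1.54 to 0.295). Chrm3, an excitatory muscarinic receptor, differed by -2.12 cycles in pools (interval -4.33 to 0.0954). Chrna4, a nicotinic subunit, was at -4.01 and -4.18 in RIPC pools and -2.30, -1.31, -3.48 and -3.97 in sham pools, so the lowest sham animal nearly met the RIPC animals (difference -1.33, interval -3.14 to 0.482).

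Voltage-gated calcium channels shape pacemaking and transmitter release. By share, 6 of 7 were lower in RIPC pools and 4 of 6 lower in RIPC single neurons (medians -5.01 and -2.80). Without RIPC replicate 1, 5 of 7 were higher in pools and 3 of 6 in single neurons (medians +7.49 and +0.379). By level, 6 of 7 were lower in RIPC pools (median -0.402 cycles against -0.140 over all genes tested) and all 6 tested were higher in RIPC single neurons (median +0.661 against -0.124). The level counts were not recomputed without RIPC replicate 1. For Cacna1b in pools that animal was at -1.46 cycles, RIPC replicates 2 and 3 at 1.72 and 1.64, and sham animals at 0.567 to 1.42. Cacna1g, a T-type channel, had a pool share of 50, 75 and 100% in RIPC and 52.9 to 71.4% in sham, with a difference of +12.1 (interval -17.9 to 42.1), and -1.90 in single neurons. Of the pacemaker, potassium, sodium and TRP channels, 8 of 9 were lower by level in RIPC single neurons (median -0.226) and 6 of 11 in pools (median -0.0874). Over all genes tested by level, 53 of 83 were lower in single neurons and 63 of 106 in pools.

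Fos, a marker of recent activity, had a Ct in 25, 25 and 0% of RIPC pools and in 28.6, 36.4, 63.6 and 23.5% of sham pools, a difference of -21.4 (interval -51.2 to 8.44). In single neurons the order was the other one, with 50, 0 and 27.3% in RIPC and 0, 0 and 20% in sham (difference +19.1, interval -12.3 to 50.5), and in right pools alone it was +31.7. Of the 6 activity and stress genes tested in single neurons, 4 were lower by share, among them Mapk14, a stress kinase, with a Ct in 75, 90 and 90.9% of RIPC neurons and in all sham neurons of the animals compared, a gene that entered the test only because it was missing from some RIPC neurons. Nr3c1, the glucocorticoid receptor and another gene of this list, had levels of -3.95 and -1.42 in RIPC pools and -1.31, -1.42, -0.707 and -1.32 in sham pools, so that RIPC replicate 2 was all but equal to sham replicate 2.

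Ntrk2 and Srebf1 were among the larger differences in single neurons. Ntrk2, the receptor of brain-derived neurotrophic factor, was at 100, 30 and 72.7% in RIPC and 42.9, 33.3 and 20% in sham, with RIPC replicate 2 within the sham range, and the difference was +35.5 (interval 4.09 to 66.9, adjusted p = 0.879 by limma; exact permutation p = 0.3). Srebf1, a regulator of lipid synthesis, was at 75, 70 and 63.6% in RIPC and 42.9, 33.3 and 40% in sham, a difference of +30.8 (interval -0.611 to 62.2). In pools these genes differed by -12.3 and -20.2, or +2.26 and -3.55 without RIPC replicate 1. Esr1, an estrogen receptor, had no Ct in any of the 18 RIPC pools and was found in 5.88 to 27.3% of the pools of each sham animal, and Nos3, the endothelial nitric oxide synthase, was at 25, 25 and 0% in RIPC pools and 27.3 to 36.4% in sham pools. For Esr1 a count of 0 in 18 pools allows a share of up to 16.7%, and the gene entered the test only through its detection in sham. Pparg, a lipid-sensing transcription factor, had a level difference of -3.03 cycles in pools (interval -6.14 to 0.0684), with 66.7% of its RIPC Ct above cycle 20.

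Neuronal and reference genes did not set the groups apart evenly. Camk2a, a kinase of neurons, had levels of -5.81, 1.00 and -0.535 in RIPC pools and -0.454 to 1.39 in sham pools, and the difference of -2.03 cycles (interval -4.75 to 0.687) lay in RIPC replicate 1. Eno2, the neuronal enolase, was at -4.32, 1.00 and 0.915 in RIPC pools and -2.28, 0.945, 1.07 and 0.826 in sham pools. In single neurons Eno2 was at 1.65, 1.14 and 0.740 in RIPC and -4.31, 1.4 and -0.158 in sham, where sham replicate 1 was low. The difference was +2.20 cycles (interval -0.735 to 5.13, adjusted p = 0.990 by limma). Treating samples as the unit with the animal as a random block called Eno2 alone in single neurons, at +2.63 cycles with an adjusted p of 0.000492 by limma, but the 6 neurons of sham replicate 1 with a Ct lay between -7.22 and -2.25, below all other sham neurons. Without that animal the difference over animals was +0.55 cycles.

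In the remaining lists 0 genes were called, and their medians are given for pools first and single neurons second, beside -6.08 and +5.83 over all genes tested. Catecholamine genes and dopamine receptors had a median share difference of -8.34 in pools (1 of 4 higher) and +12.8 in single neurons (3 of 4 higher). By level all 3 tested in single neurons were lower (median -2.08), against 53 of 83 over all genes tested. Adrenergic receptors were at -10.9 and +6.32, angiotensin genes at -12.6 and +9.15, and natriuretic genes at -3.61 and +9.28. Without RIPC replicate 1 the pool medians of catecholamine, adrenergic, angiotensin and natriuretic genes were +1.77, -1.89, +16.6 and +13.5. The single-neuron medians without it were +7.15, +9.57, +3.23 and +3.52 in the same order. Neuropeptides and secreted factors were lower in 7 of 7 in pools (median -6.64; 4 of 7 and -1.39 without RIPC replicate 1) and higher in 4 of 6 in single neurons (median +5.74), and other peptide receptors were at -6.11 and +5.6, the pool value turning to +3.54 without that animal.

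Transcription factors were lower in 10 of 14 in pools (median -6.70; 8 of 14 and -2.51 without RIPC replicate 1) and higher in 4 of 7 in single neurons (median +9.57). Inflammation, prostaglandin and nitric oxide genes were lower in 5 of 7 in pools (median -12.5) and in 2 of 3 in single neurons (median -4.0). Without RIPC replicate 1 these medians were -10.7 and -0.361. Activity and stress genes were lower in 4 of 4 in pools (median -6.78; 2 of 4 and -0.525 without RIPC replicate 1), with a single-neuron median of -8.83, and reference and pan-neuronal genes were lower in 4 of 4 in pools and 2 of 2 in single neurons (medians -5.29 and -15.4). Without RIPC replicate 1 the pool median of the reference genes was +9.84. G-protein regulators were at -1.76 and +7.14 (+14.6 and +0.123 without that animal). The only glutamate receptor tested, Grin2a, was at -32.4 and +7.34 (-24.1 and +1.89 without that animal).

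**Figure D4:**
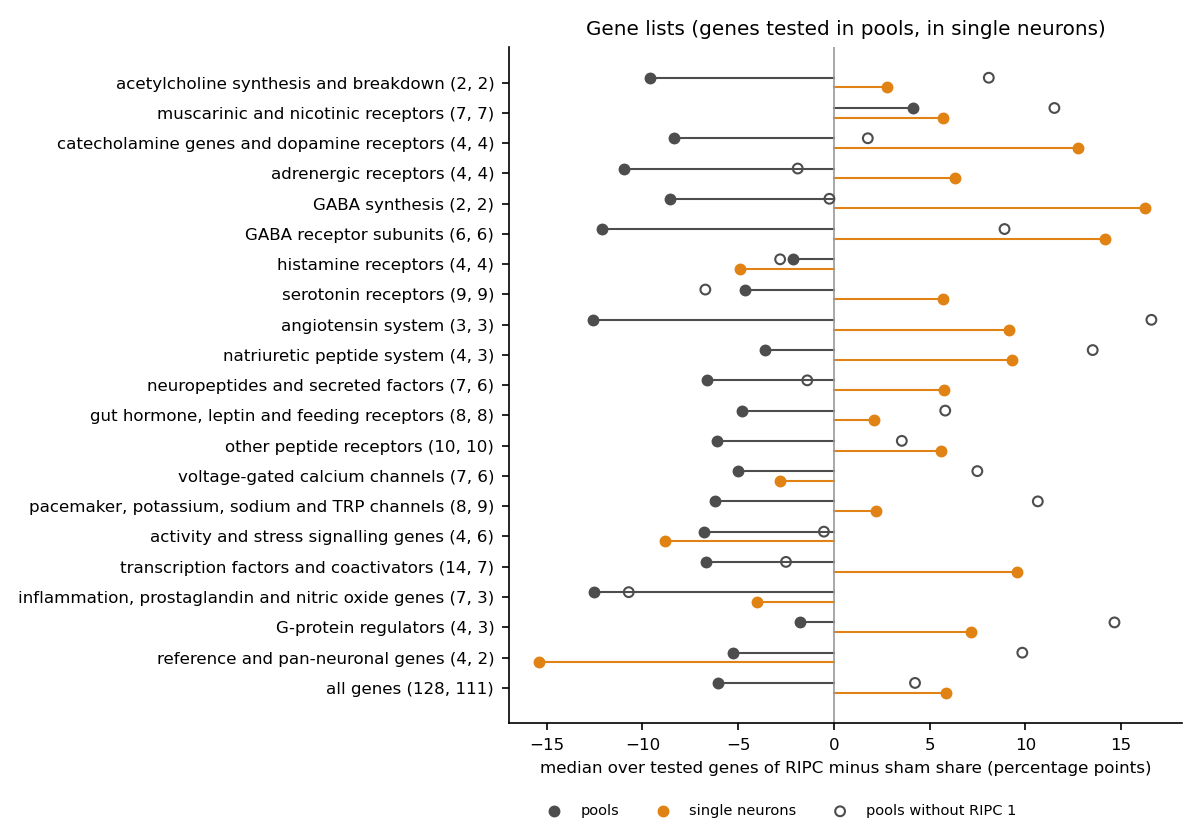
Median difference in share, RIPC minus sham (horizontal axis, percentage points), over the tested genes of each gene list, for pools (gray) and single neurons (orange), with open circles for pools without RIPC replicate 1; the numbers after each name are the genes tested in pools and in single neurons. For GABA receptor subunits the pool median of -12.1 becomes +8.91 without that animal, and the single-neuron median is +14.2.

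Whether pools and single neurons differed in their response was tested on the share in pools minus the share in single neurons of each animal. Of 100 genes 0 were called (0%), 2 had an unadjusted p under 0.05, and the smallest adjusted p was 0.956 by limma. The genes with an unadjusted p under 0.05 were Srebf1, at -49.9 percentage points (interval -99.0 to -0.853), and Gabra2, at -49.0 (interval -97.6 to -0.454). For Gabra2 the pool share minus the single-neuron share was -50, 10 and 18.2 in the RIPC animals and 28.6, 48.5 and 48.2 in sham replicates 1, 2 and 4. The interval of a gene had a median half-width of 50.3 percentage points.

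Across the 100 genes tested by share in both, the pool difference and the single-neuron difference had a Pearson correlation of -0.123 and a Spearman correlation of -0.114, with 18 genes higher in RIPC in both, 21 lower in both and 61 of opposite sign. Across the 80 genes tested by level the correlations were -0.0381 and -0.0649, with 10 higher in both, 29 lower in both and 41 opposite. These are descriptions across genes, which are not independent replicates, and the pools and single neurons of an animal share that animal.

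**Figure D5:**
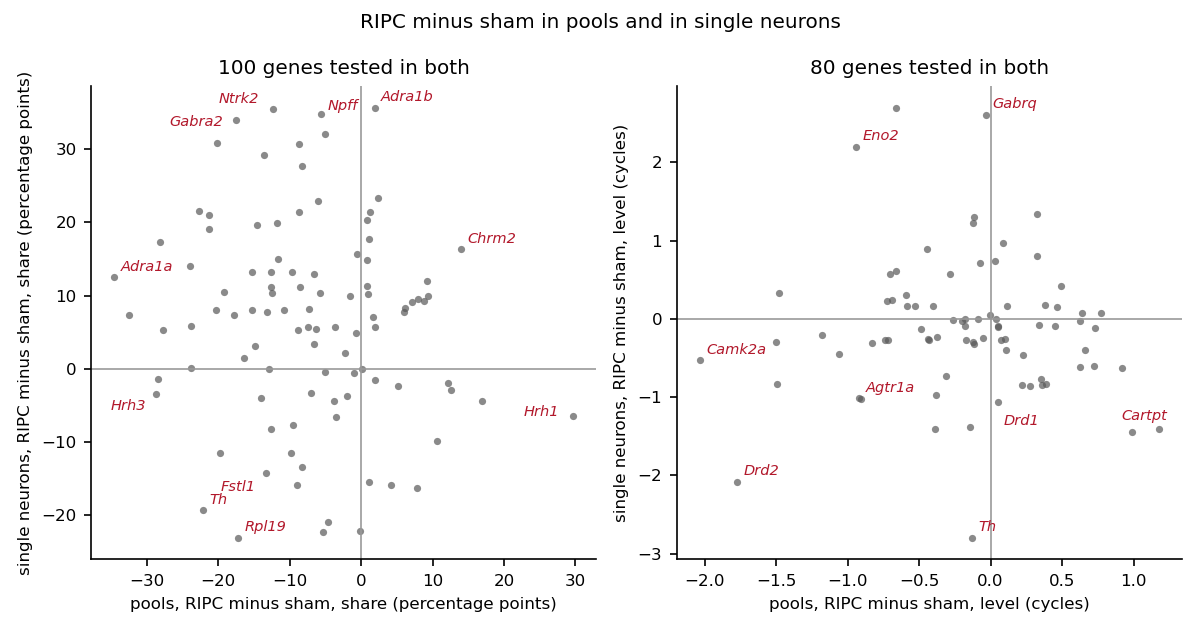
Difference between RIPC and sham in pools (horizontal axis) against that in single neurons (vertical axis) for 100 genes by share (left, percentage points) and 80 genes by level (right, cycles); each point is a gene, and some are named. The points do not follow a line (Pearson -0.123 and -0.0381), and Drd2 sits at -1.77 cycles in pools and -2.08 in single neurons.

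The sides of the DMV were also taken apart, which left only RIPC replicates 1 and 2 in the pools of either side and sham replicates 1 and 4 in right single neurons. In left pools 109 of 128 genes had a lower share in RIPC (median -22.8 percentage points), and in right pools 72 of 129 had a higher share (median +3.33). In single neurons the medians were +9.29 on the left and +2.78 on the right. No gene was called on either side in either kind of sample by limma, with 17 genes at an unadjusted p under 0.05 in left pools. RIPC replicate 1, with a mean of 50.5 assays, is 1 of the 2 RIPC animals in left pools, and the part of this yield in the left-sided values was not tested. The GABA receptor subunits were lower in 6 of 6 in left pools (median -30.8) and in 6 of 6 in right pools (median -10.4), and higher in 6 of 6 in right single neurons (median +31.9). In left single neurons 4 of 5 were higher, with a median of +2.94, below the left median of +9.29 over all genes.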

How the data were processed

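The authors deposited raw Ct for 165 genes in 218 columns, not normalized, with 1 unit being 1 amplification cycle. Missing Ct were read as not detected, although some may be failed assays. The cDNA had been preamplified before the assays. Chip assignments were not given in the sources used, and no batch test by chip was made. The labels supplied group, animal, side and number of cells.

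Duplicate assays of 3 genes and second runs were averaged, and a Ct in either counted as a detection. Samples with a Ct in at least 42 assays were kept; this number of assays stands for depth. The limit is laxer than the study's own, which 84 assays stand for among the alternatives. Pools held at least 2 cells. An animal entered with at least 2 samples, and its level with at least 2 samples with a Ct. Genes detected in 10% to 95% of RIPC and sham samples were tested by share, and those with levels in 2 or more animals of each group by level. limma 3.58.1 (R 4.3.3) fitted 3 groups over animals, with naive animals only sharing the estimate of spread, two-sided; Benjamini-Hochberg adjustment covered all genes tested. Exact permutation tests over animals were two-sided. Intervals are 95% and from limma. Genes were named where the study's text names them for RIPC or sham, or as identity and activity markers, the 5 smallest p of each fit and genes without overlap in both kinds of sample; others (Gabrb2, Eno2, Scn2a, Dbh, Srebf1, Esr1, Nos3, Htr1b, Hcrtr1, Mapk14, Nr3c1, Chrm1, Chrm5 and the other genes without overlap) were named after their values were seen. Members, lists and tests were chosen with earlier results of these data known. Alternatives covered filters, centring, weights, undetected values, sides, yield, pool size, unit of the test, each animal left out, and the replicate number as a block. The scripts were tested on simulated data. The result of 1 gene is not reported here.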

Additional observations from a re-analysis of the deposited data

Results flagged for a closer look

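In 60 sets of 4 sham animals, formed by the shares and levels of the named genes and the yield in pools, 4 had an animal whose gap to the nearest other exceeded Dixon's 95% critical value, and chance flags about 1 in 20 such sets. Drd2 had a Ct in 45.5% of the pools of sham replicate 2 against 81.8 to 85.7% in the other sham animals, a ratio of gap to range of 0.903. Cckar was at 9.09% in the same animal against 71.4 to 81.8% in the others, a ratio of 0.857. Hrh3 had a Ct in all pools of sham replicate 3 against 70.6 to 72.7% in the others, a ratio of 0.927. The level of Nppa was -5.03 cycles in sham replicate 1 against -2.74 to -2.28 in the others, a ratio of 0.833.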

How the results depend on the processing

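Of 110 settings that gave a count of called genes, all but 7 gave no call, and the exceptions were all levels. Not all of these were separate checks. In pools, first runs only gave the main fit again, and merged single neurons and pools were counted under both kinds of sample. Of 55 settings for yield and neuron class, 1 could reach p under 0.05, so their p-values say nothing about stability, and 5 had the other sign, among them yield in pools without RIPC replicate 1 (+1.80 assays). In pools a single sample with a Ct per animal in place of 2 gave 1 call, and the methods' t-test over samples gave 8 genes before and 0 after Benjamini-Hochberg. In single neurons the methods' t-test gave 5 before and 1 after, the animal as a random block gave 1 (Eno2), and leaving out each animal gave 0 to 1, the call being Gabrq without sham replicate 1 (adjusted p = 0.0468 by limma), which leaves sham replicate 4 alone, assumed to vary like the other groups. With the replicate number as a block, 3 genes were called by level in single neurons (Drd2, Htr3b and Kcna1, smallest adjusted p = 0.000655 by limma) and none elsewhere. The blocked value of Drd2, -4.15 cycles, equals RIPC replicate 1 minus sham replicate 1, 1 animal against 1. RIPC and sham animals share only a number: deviations of same-numbered animals correlated at -0.123 and 0.342 by level in single neurons and at 0.158, -0.321 and 0.365 by share in pools. Single-gene differences were recomputed 2084 times, and 274 had the other sign, among them 38 of 104 when single neurons and pools were merged, 15 of 42 at 84 assays, 13 of 44 with undetected values set below the lowest, 18 of 75 in the right DMV, 24 of 104 without RIPC replicate 1 and 22 of 104 without RIPC replicate 2. The sign held under every alternative run for 23 results, among them the share of Hrh1 in pools (7.59 to 55.6 percentage points), the share of Npr3 in single neurons (7.48 to 42.3), and the levels of Drd2 (-2.42 to -0.622 cycles) and Npr3 (0.918 to 4.34) in pools. The share minus the animal's mean share was chosen after the data had been seen. At 84 assays no sham animal kept enough single neurons, so that setting could not be run for single neurons or for the difference between kinds of sample. Precision is limited by 3 RIPC animals, by 2 pools in RIPC replicate 3, and by assay error: in 2 single neurons of RIPC replicate 2 that were run again, the SD of the difference in Ct was 3.92 and 1.14 cycles, and 60.1% and 71.4% of assays had the same call.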
